A study of Mus musculus with 4 samples.

Results

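The genes that carry glucose into the keratinocyte, commit it to glycolysis and let the resulting lactate out were examined in newborn mouse epidermis with and without Skiv2l. The set held 10 genes chosen by name: the glucose transporters Slc2a1 and Slc2a3, the hexokinases Hk1 and Hk2, the 6-phosphofructo-1-kinase genes Pfkl and Pfkp, the bifunctional enzymes Pfkfb2, Pfkfb3 and Pfkfb4, and the lactate exporter Slc16a3. All 10 were among the 54752 genes in the tables and among the 13609 protein-coding genes that were tested. The rule used gene names and no measured value, but the names were chosen with earlier results of these data known. Epidermis came from C57BL/6 pups on the day of birth (P0), with 2 Skiv2l ctl pups and 2 Skiv2l fl/fl K14-Cre pups, 1 library each. Skiv2l encodes a helicase of the cytoplasmic SKI complex, which feeds mRNA to the RNA exosome. In the knockout pups, Cre driven by the keratin 14 promoter deleted the floxed gene in keratinocytes from before birth, so other cells of the tissue keep it. The control label took in Skiv2l fl/fl pups without Cre and Skiv2l fl/+ pups with or without K14-Cre, and which of these each control pup was is not given in the sources used here, so a control may carry Cre and a deleted allele.

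Glucose enters cells through facilitative transporters of the Slc2a (GLUT) family and is trapped by hexokinase as glucose 6-phosphate. Phosphofructokinase then makes the committed step of glycolysis. The PFKFB enzymes make and break fructose 2,6-bisphosphate, the strongest activator of phosphofructokinase, and the monocarboxylate transporter MCT4, the product of Slc16a3, exports lactate. Each step has several isoforms with different regulation, and Slc2a1, Hk2, Pfkfb3, Pfkfb4 and Slc16a3 are textbook targets of the hypoxia-inducible factor HIF-1. In epidermis, which has no blood vessels of its own, Slc2a1 is the main glucose transporter of basal keratinocytes.

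Levels are given as FPKM, fragment counts scaled to transcript length and to library depth, so levels of different genes can be compared within a library. The libraries held 5.843 to 6.274 gigabases of aligned sequence, and 16138 to 17761 genes had an FPKM above 0.5, with the lowest number in the second knockout library. Skiv2l itself was at 19.3 and 19.1 FPKM in control pups and 10.8 and 8.55 FPKM in knockout pups, a log2 fold change of -0.92 with an SE of 0.12 (limma, adjusted p = 0.00368). This value covers the whole gene and does not measure how far the floxed part was deleted. The paper reports depleted SKIV2L protein in newborn epidermis of this genotype by Western blot. Differences were tested with limma on log2(FPKM + 1), and a gene was called at a Benjamini-Hochberg adjusted p under 0.05 over all tested genes. Log2 fold changes are on that scale, which understates changes of low genes. Of all tested genes, 1223 (8.99%) were called higher and 3455 (25.4%) lower in the knockouts, and the median log2 fold change was -0.20. After scaling every library to the same median, the split was 1894 higher and 1623 lower with a median of -0.03.

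Of the 10 genes, 6 rose in epidermis of Skiv2l fl/fl K14-Cre pups and 0 fell (limma, 0 also at an unadjusted p under 0.05). The shares of all tested genes were 8.99% and 25.4%. The 10 were chosen with earlier results of these data known, so setting them beside these shares is no test of the set. Among genes of these steps left out of the set, Pfkm and Slc2a6 were called lower and Slc5a1 higher. Slc2a1, Hk2, Pfkl, Pfkp, Pfkfb4 and Slc16a3 rose, whereas Slc2a3, Hk1, Pfkfb2 and Pfkfb3 did not pass the test. Both knockout libraries lay above both control libraries for 7 genes (the 6 called and Pfkfb3), against 18.2% of all tested genes, and below them for Pfkfb2 alone, against 55.3% of all tested genes. The median log2 fold change of the 10 genes was 1.24. The same 6 were called after median scaling and after quantile normalization. With 1 knockout library left out, only the control pair gave the spread, so calls then take no account of the difference between the knockout pups. Without the first control library 1 of the 10 was called, and without the second 0, with the spread then taken from the knockout pair alone. In whole tissue, more cells of a type and more RNA per cell cannot be told apart.

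**Figure D1:**
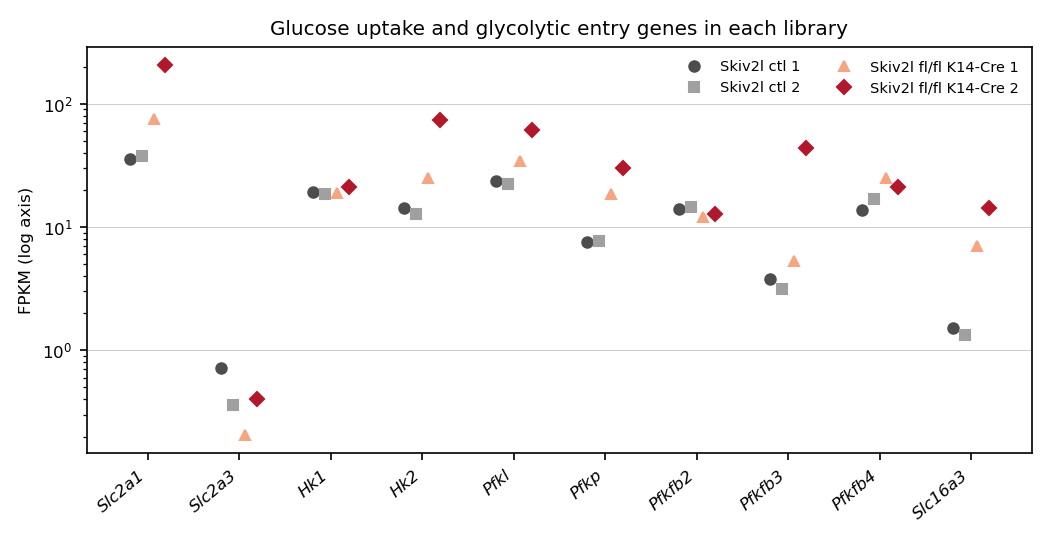
FPKM of the 10 genes in each of the 4 libraries, on a log axis. The second knockout library (dark red diamonds) is the highest of the 4 for 7 genes, with Slc2a1 at 204 FPKM and Pfkfb3 at 43.6 FPKM, while the 4 points of Hk1 lie between 18.5 and 21.2 FPKM.

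Upstream sequence is shown for 4 members, as the 250 bases before a RefSeq transcript start, read along the gene (build GRCm38.p6). Hk2 and Hk1 catalyse the same reaction and only Hk2 was called, Slc16a3 had the highest log2 fold change of the set, and Pfkp was called with little spread between the controls. Capitals mark 2 short motifs, searched on both strands: ACGTG, the core that HIF-1 binds and which reads CACGT from the other strand, and its variant GCGTG, which from the other strand reads CACGC.
Hk2 (chr6:82774455-82774704, minus strand): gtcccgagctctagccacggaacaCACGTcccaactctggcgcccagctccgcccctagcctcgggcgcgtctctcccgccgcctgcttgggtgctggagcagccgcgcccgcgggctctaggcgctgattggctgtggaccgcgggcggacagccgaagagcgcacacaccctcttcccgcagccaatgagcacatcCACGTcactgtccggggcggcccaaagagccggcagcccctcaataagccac
Hk1, upstream start (chr10:62379909-62380158, minus strand): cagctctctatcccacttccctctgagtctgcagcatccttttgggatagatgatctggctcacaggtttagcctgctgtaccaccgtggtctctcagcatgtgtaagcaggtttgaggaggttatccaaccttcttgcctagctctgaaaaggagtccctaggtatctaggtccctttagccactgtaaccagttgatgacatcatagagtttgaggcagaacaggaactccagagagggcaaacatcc
Slc16a3 (chr11:120948817-120949066, plus strand): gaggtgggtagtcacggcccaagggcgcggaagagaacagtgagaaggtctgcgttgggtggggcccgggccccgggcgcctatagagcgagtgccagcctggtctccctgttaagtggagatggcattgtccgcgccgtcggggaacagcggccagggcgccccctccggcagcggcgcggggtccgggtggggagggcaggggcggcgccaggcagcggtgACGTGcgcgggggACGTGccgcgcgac
Pfkp (chr13:6648772-6649021, minus strand): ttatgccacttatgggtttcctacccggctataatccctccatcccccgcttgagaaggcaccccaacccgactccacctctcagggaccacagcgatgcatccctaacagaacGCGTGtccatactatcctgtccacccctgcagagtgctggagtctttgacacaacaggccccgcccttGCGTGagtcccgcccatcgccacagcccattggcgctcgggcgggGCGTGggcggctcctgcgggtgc
In the Hk2 window, ACGTG began 226 and 52 bases before the start. In the Slc16a3 window it began 27 and 14 bases before the start. The upstream Hk1 window held neither motif, and Pfkp held GCGTG at 136, 68 and 23 bases before the start but no ACGTG. The window of the other Hk1 start, not printed, held GCGTG at 196, 15 and 12 bases before it. Which Hk1 start this tissue uses was not tested.
Over all 9 members with an entry (Slc2a3 had none), 5 held ACGTG in at least 1 of their windows, namely Slc2a1, Hk2, Pfkfb2, Pfkfb3 and Slc16a3. The share among all 27025 genes with such a window was 18.5%. By window, 7 of 13 held it, against 16.6% of all 32851 windows. Several members are textbook HIF-1 targets, and the background was not matched for base composition, so these shares are no test. GCGTG was in windows of 7 members, against 30.9% of all genes, including the window of the other Hk1 start. CACGTG, an E-box letter run that overlaps ACGTG, was in windows of 2 members, Pfkfb2 and Pfkfb3, against 6.86% of all genes. Slc2a1 held ACGTG 36 bases and GCGTG 61 bases before its start. Slc2a1 held both motifs and rose, whereas Pfkfb2 and Pfkfb3 held both and were not called. These last differed, as Pfkfb3 lay above both controls in both knockouts (log2 fold change 1.92) and Pfkfb2 below (-0.17). Hk2 and Slc16a3 rose with ACGTG alone, and Pfkl, Pfkp and Pfkfb4 with GCGTG alone. Whether the letters go with the changes was not tested. These are matches of letters and not measured sites. Of the printed bases, 14 in the Slc16a3 window and 6 in the Pfkp window lie in exons of other transcripts annotated in GENCODE M21.

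Slc2a1 (ENSMUSG00000028645.11, chr4:119108711-119137983, plus strand) encodes GLUT1, the high-affinity transporter of epithelia and red cells. It was at 35.9 and 37.4 FPKM in control pups and at 74.9 and 204 FPKM in the knockout pups. Both knockouts were above both controls, by 2.04-fold and 5.56-fold over the control mean, and they differed from each other far more than the controls did. The log2 fold change was 1.73 (SE 0.42, limma, adjusted p = 0.024). It was 1.01 without the second knockout library and 2.44 without the first. The call was lost without the first or the second control library.

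Slc2a3 (ENSMUSG00000003153.10, chr6:122727809-122801640, minus strand) encodes GLUT3, best known from neurons and leukocytes. It was at 0.722 and 0.359 FPKM in control pups and 0.207 and 0.406 FPKM in knockout pups, so the groups overlapped, and only the first control library put it above the minimum of 0.5 FPKM. The log2 fold change was -0.23 (SE 0.18, limma, adjusted p = 0.349). Within the 11 Slc2a genes listed, Slc2a1 made up 69.1% and 68.1% of the summed FPKM in control pups and 85.2% and 94.7% in the knockouts, while the family sum went from 52 and 54.9 FPKM to 87.9 and 215 FPKM. Slc2a8 was the next most abundant at 11% and 10.4% in controls and 5.24% and 2.08% in knockouts.

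Hk2 (ENSMUSG00000000628.10, chr6:82725025-82774454, minus strand) encodes the inducible hexokinase of muscle, fat and growing cells. It was at 14.3 and 12.8 FPKM in control pups and at 24.8 and 73.2 FPKM in knockout pups. As with Slc2a1, both knockouts were above both controls and the second pup was far above the first. Hk2 rose by a log2 fold change of 1.59 (SE 0.45, limma, adjusted p = 0.0382). That change was 0.82 when the second knockout library was left out and 2.35 when the first was. The call was lost without the first or the second control library (limma, adjusted p = 0.161 and 0.188).

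Hk1 (ENSMUSG00000037012.18, chr10:62268855-62379908, minus strand), the hexokinase found in most tissues, was at 19.2 and 18.5 FPKM in control pups and 18.7 and 21.2 FPKM in knockout pups. The groups overlapped, and the log2 fold change was 0.08 (SE 0.10, limma, adjusted p = 0.566). Without the second knockout library it was -0.01. In the controls Hk1 was the more abundant of the pair, at 56.5% and 58.5% of hexokinase FPKM against 42.3% and 40.4% for Hk2. In the knockouts the order turned, with Hk2 at 56.3% and 77.2% and Hk1 at 42.5% and 22.4%. With 2 pups a group, the exact permutation test of a share cannot give a two-sided p below 0.333, which is the value for each of these shares and for the others that did not overlap.

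Pfkl (ENSMUSG00000020277.10, chr10:77986947-78010083, minus strand) encodes the liver-type phosphofructokinase. Its levels were 23.5 and 22.5 FPKM in control pups and 34 and 61.4 FPKM in knockout pups, with both knockouts above both controls. Pfkl rose by a log2 fold change of 0.96 (SE 0.25, limma, adjusted p = 0.0308), and 0.55 without the second knockout library or 1.38 without the first. Without the first or the second control library the adjusted p was 0.149 and 0.162 (limma).

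Pfkp (ENSMUSG00000021196.14, chr13:6579768-6648777, minus strand), the platelet-type isoform, was at 7.51 and 7.66 FPKM in control pups and 18.6 and 30.3 FPKM in knockout pups. The groups were well apart and the controls nearly equal. Its log2 fold change was 1.53 (SE 0.21, limma, adjusted p = 0.004), and the adjusted p was 0.0562 and 0.055 (limma) without the first or the second control library. Pfkm, the muscle-type isoform, went the other way, from 5.56 and 5.35 FPKM to 2.55 and 2.3 FPKM (log2 fold change -0.92, SE 0.11, limma, adjusted p = 0.00294). Pfkp made up 20.6% and 21.5% of phosphofructokinase FPKM in controls and 33.7% and 32.2% in knockouts, Pfkm 15.2% and 15% against 4.62% and 2.45%, and Pfkl 64.2% and 63.4% against 61.7% and 65.4%. The shares of Pfkl overlapped between the groups (exact permutation p = 1). Of the exon bases of Pfkp, 5.58% overlap the opposite-strand gene Pitrm1, and whether counting used strand is not given in the sources used here.

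Pfkfb3 (ENSMUSG00000026773.19, chr2:11471433-11554077, minus strand) encodes the isoform with the highest kinase over phosphatase activity. It was at 3.76 and 3.15 FPKM in control pups and at 5.31 and 43.6 FPKM in knockout pups. Both knockouts were above both controls, at 1.54-fold and 12.6-fold of the control mean, and nearly the whole difference lay in the second pup. The log2 fold change of 1.92 had an SE of 0.81 and did not pass the test (limma, adjusted p = 0.114). Without the first knockout library it was 3.33, and without the second it was 0.51. With the replicate number as a block it passed (limma, adjusted p = 0.0294), but whether that number pairs the pups is not given in the sources used here.

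Pfkfb4 (ENSMUSG00000025648.18, chr9:108991778-109032228, plus strand), the isoform first known from testis, was at 13.7 and 17 FPKM in control pups and 25.1 and 21.1 FPKM in knockout pups. Here the first knockout pup was the higher, unlike for the other members that rose. Its rise was a log2 fold change of 0.56 (SE 0.14, limma, adjusted p = 0.0253). The adjusted p rose to 0.156 without the first control library, 0.0653 without the second and 0.081 without the first knockout library (limma).

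Pfkfb2 (ENSMUSG00000026409.14, chr1:130689182-130729253, minus strand), the heart isoform, was at 13.9 and 14.5 FPKM in control pups and 12.1 and 12.8 FPKM in knockout pups. Both knockouts were slightly below both controls, with a log2 fold change of -0.17 (SE 0.09, limma, adjusted p = 0.187) that became 0.03 after median scaling. Its exons share 17.4% of their bases with the same-strand gene model Gm29427, so reads may be divided between them. In the controls Pfkfb2 and Pfkfb4 were the main isoforms of the PFKFB sum, at 42.4% and 40% against 41.8% and 47%. In the knockouts Pfkfb2 was at 27% and 16.1%, Pfkfb4 at 55.7% and 26.5%, and Pfkfb3 at 11.8% and 54.9%, so the leading isoform was Pfkfb4 in the first knockout pup and Pfkfb3 in the second. Pfkfb3 had been at 11.5% and 8.71% in the controls.

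Slc16a3 (ENSMUSG00000025161.16, chr11:120948480-120960868, plus strand), the lactate exporter of highly glycolytic cells, was at 1.53 and 1.32 FPKM in control pups and at 6.97 and 14.3 FPKM in knockout pups. Both knockouts were above both controls, by 4.9-fold and 10.1-fold over the control mean. The log2 fold change was 2.19 (SE 0.29, limma, adjusted p = 0.00352), the highest of the 10 genes. It was 1.72 without the second knockout library, and the call was lost without the second control library. Slc16a1, which encodes the more widely expressed MCT1, was at 8.8 and 9.56 FPKM in controls and 8.24 and 11.9 FPKM in knockouts (log2 fold change 0.10, limma, adjusted p = 0.662). Of the FPKM summed over Slc16a1, Slc16a3, Slc16a7 and Slc16a8, Slc16a3 made up 11.1% and 8.72% in controls and 39.4% and 51.1% in knockouts, and Slc16a1 64.3% and 63.4% against 46.7% and 42.3%.

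**Figure D2:**
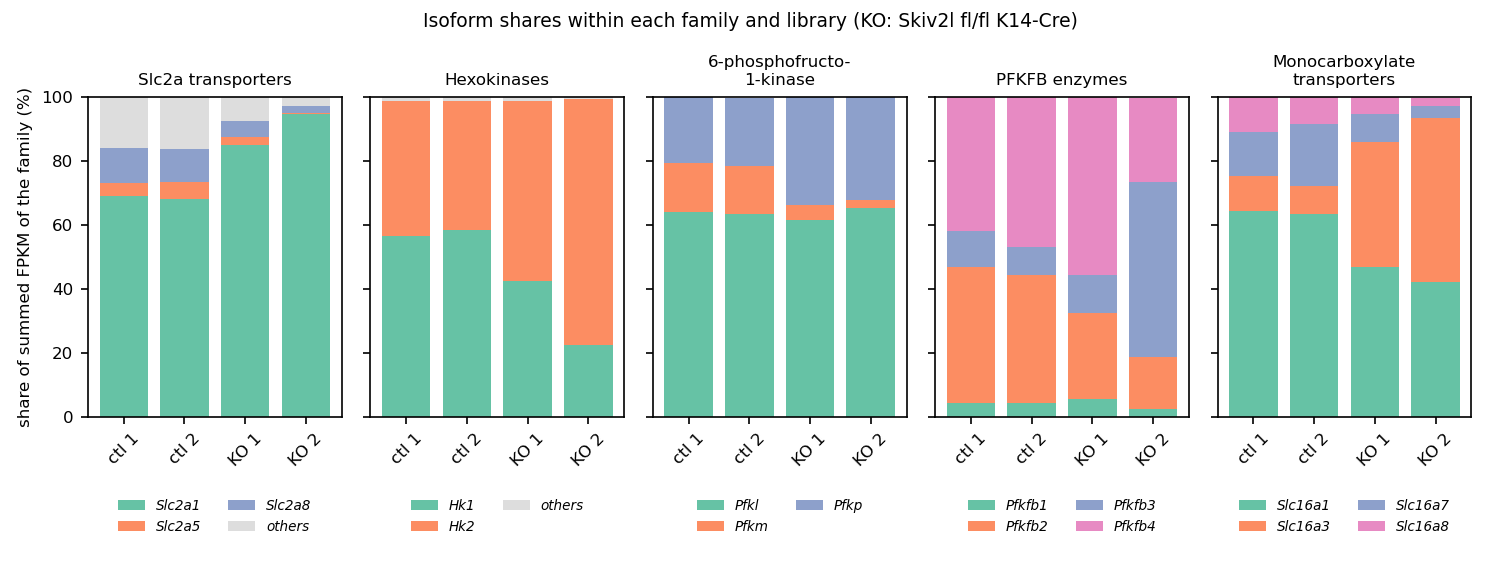
Share of each isoform in the summed FPKM of its family (percent) in the 2 control (ctl) and 2 knockout (KO) libraries, with genes that never reach 5% of their family joined as others. Slc2a1, Hk2, Pfkp and Slc16a3 take larger shares in both knockout libraries, and Pfkfb3 takes 54.9% in the second alone.

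The knockout pups were not alike for these genes. Of the 10, 9 were higher in the second knockout library than in the first, against 42.8% of all tested genes, and the median difference between those libraries was 0.76 on the log2(FPKM + 1) scale, against -0.04 over all tested genes. Pfkfb3 differed by 2.82, Hk2 by 1.53 and Slc2a1 by 1.43, which placed them at ranks 3, 17 and 24 of 13609 genes. Only 52 tested genes (0.382%) were higher by more than 1 in the second knockout library, and these 3 were among them. In either direction, 94 tested genes (0.691%) differed by more than 1 between the knockout libraries. Slc16a3 was higher by 0.94, Pfkl by 0.83 and Pfkp by 0.68. Hk1 was higher by 0.17 and Pfkfb2 by 0.07, and Pfkfb4 was lower, with a difference of -0.24. The controls differed by more than 1, in either direction, for none of the 10 and for 92 tested genes (0.676%).

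**Figure D3:**
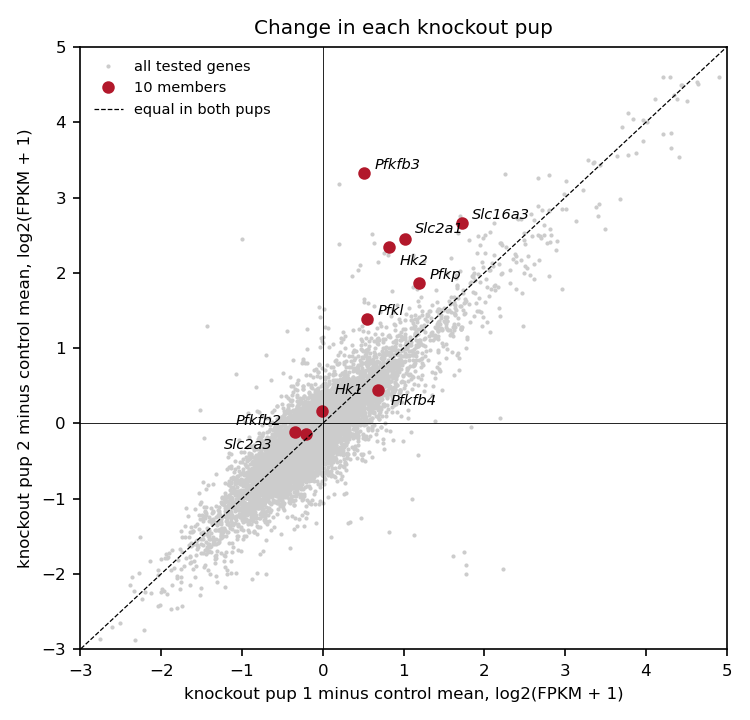
Difference of each knockout library from the control mean on the log2(FPKM + 1) scale, first pup on the x axis and second on the y axis, with all 13609 tested genes in grey and the 10 members in red. Pfkfb3, Slc2a1, Hk2, Slc16a3, Pfkl and Pfkp lie above the dashed line of equal change, and Pfkfb4 lies below it. The axes run from -3 to 5, and 19 genes lie outside them.

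The tested genes whose profiles over the 4 libraries were most like that of Hk2 were Nxph4, Slc2a1 and Ak4, at Euclidean distances of 0.122, 0.257 and 0.258 on the log2(FPKM + 1) scale after subtracting the control mean. Nxph4, which encodes a neurexin ligand, was at 0.795 and 0.667 FPKM in controls and 2.03 and 7.12 FPKM in knockouts. Ak4, a mitochondrial adenylate kinase, was at 1.91 and 1.8 against 3.57 and 11.6 FPKM. For Slc2a1 the nearest were Egln3, Tmem140 and Hk2, at 0.116, 0.231 and 0.257. Egln3, a prolyl hydroxylase that acts on HIF proteins, was at 21.2 and 24.4 FPKM in controls and 47.9 and 133 FPKM in knockouts. Within a distance of 0.5 there were 10 tested genes for Hk2 and 9 for Slc2a1. These likenesses rest on 4 libraries, and the genes were picked for them.

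The rest of the glucose pathway was described by lists of other genes, also chosen with earlier results of these data known. Of 14 genes of lower glycolysis and lactate dehydrogenase, 7 rose and 1 fell, against 8.99% and 25.4% of all tested genes, with a median log2 fold change of 0.65 against -0.20. Eno1, an enolase, rose most, from 248 and 241 FPKM to 572 and 689 FPKM (log2 fold change 1.36, limma, adjusted p = 0.000751), and Ldhb, the lactate dehydrogenase subunit of oxidative tissues, fell from 19.5 and 18.9 to 9.51 and 7.93 FPKM (log2 fold change -1.06, limma, adjusted p = 0.00164). The spread between knockout pups was smaller for Eno1 than for Slc2a1 or Hk2. Of 9 other hexose transporters tested, the sodium-coupled Slc5a1 rose, from 7.13 and 8.94 to 27.7 and 27.4 FPKM (log2 fold change 1.67, limma, adjusted p = 0.000494), and Slc2a6 fell (log2 fold change -0.74, limma, adjusted p = 0.00994). Unlike Slc2a1, Slc5a1 was at nearly the same level in both knockout pups. Of the other phosphofructokinase genes, Pfkm fell and Pfkfb1 was not called, although it was called higher after median scaling (log2 fold change 0.50, limma, adjusted p = 0.0474). Of the 5 other monocarboxylate transporters and chaperones, 0 were called (limma, with 0 higher and 2 lower at an unadjusted p under 0.05), and 1 was called higher after median scaling. Without the first control library, 4 genes of lower glycolysis rose and 1 fell, Pfkm and Slc2a6 were not called, and without the second 2 rose and 2 fell and Slc2a6 was not called.

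Of 14 genes in branches that draw on glucose 6-phosphate or fructose 6-phosphate, 5 rose and 0 fell, with a median of 0.05. The counts were 6 and 0 at an unadjusted p under 0.05 (limma). Of all tested genes, 8.99% were called higher and 25.4% lower. Gfpt2, an isoform of the first enzyme of the hexosamine route, rose from 0.131 and 0.164 to 3.82 and 3.69 FPKM (log2 fold change 2.05, limma, adjusted p = 0.000338). Of 3 opposing phosphatases tested, Fbp1 rose, from 0.206 and 0.274 to 0.834 and 1.05 FPKM (log2 fold change 0.65, limma, adjusted p = 0.021). Of 10 genes of pyruvate entry to the mitochondrion, 0 rose and 3 fell (limma, 0 and 6 at an unadjusted p under 0.05), with a median of -0.40, and Pdk3, a kinase that restrains pyruvate dehydrogenase, fell most (log2 fold change -0.64, limma, adjusted p = 0.0109). The share that fell was near the 25.4% of all tested genes, and the count was 2 after median scaling or quantile normalization, 5 with eBayes without a trend and 6 with TPM or with the filter of FPKM above 1 in at least 2 libraries. The other 2 that fell, Mpc1 and Mpc2, encode the subunits of the pyruvate carrier and were named after their values were seen. Without the first control library or without the second, 1 branch gene rose, Fbp1 was not called and 0 pyruvate entry genes fell (limma). Without the second knockout library Fbp1 was not called and 5 pyruvate entry genes fell.

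Of 17 regulators tested, 3 rose and 2 fell, against 8.99% and 25.4% of all tested genes. After median scaling or quantile normalization 3 rose and 1 fell, with TPM 3 and 5, and with no filter 1 and 4. Egln3 rose most (log2 fold change 1.77, limma, adjusted p = 0.024), and Txnip, an arrestin-fold protein that lowers glucose uptake, fell most, from 129 and 117 to 83.6 and 67.1 FPKM (log2 fold change -0.70, limma, adjusted p = 0.0089). Hif1a, the oxygen-regulated subunit of HIF-1, was named after its values were seen and was at 27.5 and 25.3 FPKM in controls and 62.2 and 64.2 FPKM in knockouts (log2 fold change 1.23, limma, adjusted p = 0.00043). Hif1a RNA was nearly equal in the knockout pups, and Slc2a1, Hk2 and Pfkfb3 differed between them. These are RNA levels without a measure of HIF-1 protein, and any part of HIF-1 in them was not tested. Without the first control library or without the second, 1 regulator rose and 0 fell (limma).

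**Figure D4:**
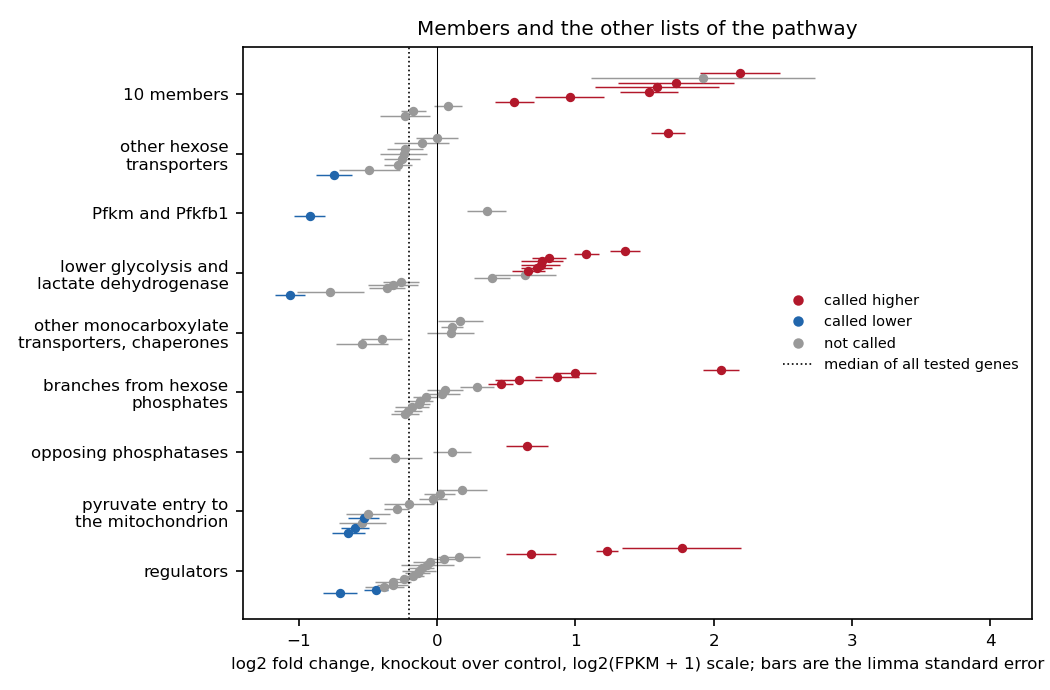
Log2 fold change on the log2(FPKM + 1) scale (knockout over control, bars show the limma standard error) of the 10 members and of each list of other pathway genes. The dotted line is the median of all tested genes at -0.20. Red genes were called higher, blue genes lower and grey genes were not called.

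Some markers of other cells moved with the groups. Summed FPKM of 6 leukocyte markers was 43 and 48.8 in control pups against 25.8 and 20.7 in knockout pups. Of the 5 tested, 4 were called lower, against 25.4% of all tested genes. For 7 erythroid markers, whose cells also carry Slc2a1 protein, the sums were 134 and 125 against 62.1 and 80.8, with 4 of 5 tested called lower, and for 6 fibroblast markers they were 61.3 and 69 against 21.9 and 25. Most of the fibroblast sum was Dcn, at 57 and 62.7 against 16.9 and 21.4 FPKM. Of the 5 fibroblast markers tested, Dcn and Col1a2 were called lower, Col1a1 and Col3a1 overlapped, and Pdgfra was above in both knockouts (log2 fold change 0.44, limma, adjusted p = 0.0601) and was called higher after median scaling (adjusted p = 0.047), when Col1a2 was not called (adjusted p = 0.0783). Of 6 melanocyte markers 1 was called higher, against 8.99% of all tested genes. Neutrophil markers summed to 0.39 and 0.851 against 7.06 and 6.12 FPKM, but the rise of the sum lay in Cxcr2, at 0.127 and 0.208 against 6.51 and 5.56 FPKM. Cxcr2 was the only one tested and was called higher, and 2 were at 0 in every library. Endothelial, skeletal muscle and adipocyte markers summed to at most 1 FPKM. Basal keratinocyte markers summed to 4267 and 4463 against 9706 and 9640 FPKM, but the rise of the sum lay almost wholly in Krt14, at 1736 and 1812 against 7381 and 7312 FPKM. Of the 6, Krt14 and Itgb4 were called higher, Krt5 was at 2003 and 2075 against 1761 and 1759 FPKM, Itga6 was also below in both knockouts, Col17a1 and Trp63 overlapped, and the median log2 fold change was -0.07. Suprabasal markers summed to 27267 and 28291 against 18921 and 21915 FPKM, with Krt1 and Lor called lower among 6. Their part in the levels of the 10 genes was not tested.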

How the data were processed

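RNA from P0 epidermis was sequenced as total RNA by the authors, who required an RNA integrity above a set minimum. Per the study's methods, a core-facility RNA-seq workflow made gene tables, and the build GRCm38 is named in the submitters' processing notes. The deposited tables give, per gene, FPKM, TPM and coverage, and the coverage and FPKM columns deposited by the authors were used together for the aligned gigabases per library. FPKM of repeated entries of a gene (13 to 16 a library) was summed per gene ID. Of 54752 genes, 54723 matched GENCODE M21 by ID, 21921 were protein-coding, and 13609 had an FPKM above 0.5 in at least 1 library and were tested, following the filter in the study's methods. The test was limma 3.58.1 (R 4.3.3, with the variance trend of eBayes, two-sided) on log2(FPKM + 1) over all 4 libraries, with Benjamini-Hochberg adjustment. TPM deposited by the authors served as an alternative. No read counts were used, and counting error per gene is unknown, so precision rests on 2 pups a group. Mitochondrial genes are listed at 0 in every library. Isoform shares were FPKM over the family sum, compared by an exact permutation test (scipy 1.17.1). Nearest profiles used Euclidean distance. Named genes were the 10 members, their measured paralogues, the called gene with the largest rise and fall of each list, Skiv2l, the 3 nearest profiles of Hk2 and Slc2a1, and cell type markers that move with a result, with exceptions marked where they stand. The members and lists were chosen with earlier results of these data known. Alternatives were another pseudocount (0.1), other filters, TPM, other scaling, a replicate block, eBayes without a trend, all annotated genes, a 2-fold minimum and leaving out each library. The limma script was tested on simulated data.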

Additional observations from a re-analysis of the deposited data

Results flagged for a closer look

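Non-coding genes inside the spans of Hk2 and Slc2a1 were outside the test of protein-coding genes and were higher in the second knockout library. Gm17034, an antisense gene within Hk2 that shares no exon bases with it, was at 0.829 and 0.629 FPKM in the controls, 1.36 in the first knockout library and 9.8 in the second. Gm12868, an antisense gene within Slc2a1, was at 0.826 and 1.3 FPKM in the controls, 1.78 in the first knockout library and 7.42 in the second, and 105 of its bases lie in Slc2a1 exons. Whether reads were assigned by strand is not given in the sources used here. Reads of these genes and of unspliced host RNA therefore cannot be told apart, nor can reads within the 105 shared bases. Both genes were part of the fit over all annotated genes, and its values for them are not reported here.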

How the results depend on the processing

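The number of members called higher was 6, and 0 were called lower under every alternative. It was 2 with no filter on low values, 5 with eBayes without a trend and 5 over all annotated genes, 4 at a 2-fold minimum, 7 with the replicate block, and 0 to 6 when 1 library was left out. Of 129 alternative log2 fold changes, 107 kept their direction and their side of the threshold, 18 lost the call, 2 gained it and 2 changed sign. With no filter (18194 genes tested), the log2 fold changes were unchanged but some calls were lost (limma). These were Slc2a1 (1.73, adjusted p = 0.0852), Hk2 (1.59, adjusted p = 0.114), Pfkl (0.96, adjusted p = 0.0953) and Pfkfb4 (0.56, adjusted p = 0.0684). Over all annotated genes (19572 tested), Hk2 was not called (1.59, limma, adjusted p = 0.0521). Why these calls were lost was not tested. Hk2 was also lost with eBayes without a trend (1.59, limma, adjusted p = 0.0532), for which the cause was not tested. With the block Pfkfb3 was called (1.92, adjusted p = 0.0294), which changed no other call among the members. In lower glycolysis it gave 9 higher and 2 lower in place of 7 and 1. The sources used here do not say whether the numbers pair the samples. The difference between the controls and that between the knockouts, first minus second library, correlated with r = -0.077 over 13609 genes. That value cannot show whether the samples were paired. Leaving out 1 library gave ranges of 1.01 to 2.44 for Slc2a1, 0.82 to 2.35 for Hk2, -0.01 to 0.16 for Hk1, 0.55 to 1.38 for Pfkl, 1.19 to 1.86 for Pfkp, 0.51 to 3.33 for Pfkfb3, 0.41 to 0.71 for Pfkfb4, 1.72 to 2.66 for Slc16a3, -0.40 to -0.06 for Slc2a3 and -0.21 to -0.14 for Pfkfb2. Without a control, only the knockout pair gives the spread and the lone control is assumed to vary like it. With a knockout library left out, only the control pair gives it, which leaves out the difference between the knockout pups. Pfkfb2 changed sign under median scaling (0.03), and Hk1 without the second knockout library (-0.01). Of 60 alternative shares 3 changed sign, all with 1 library left out: the difference for Pfkl ranged from -2.11 to 1.55 percentage points (0.126 without the first control) and that for Pfkfb4 from -17.9 to 11.3. Slc2a3 gave no value under the filter of FPKM above 1 in at least 2 libraries. With 2 pups a group and no counts, absence of a difference cannot be shown.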

Other observations

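Within the span of Slc2a1, Gm12867, another antisense gene, which shares no exon bases with it, was at 3.01 and 1.77 FPKM in the controls and 2.81 and 14.1 FPKM in the knockouts. Mir1957a, annotated on the strand of Slc2a1, was at 4.6 and 3.8 FPKM in the controls and 4.4 and 25.6 FPKM in the knockouts. For both, the second knockout library was the highest of the 4 and the first lay within the range of the controls, whereas Slc2a1 itself was above both controls in the first knockout library too. Reads of a short RNA inside an intron and of unspliced host RNA cannot be told apart in these values. In the span of Hk1, the antisense gene Hk1os was at 0.902 and 0.878 FPKM in the controls and 0.712 and 1.2 FPKM in the knockouts, which overlap.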
